A study of Mus musculus with 2 samples.

Results

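The bile acid and sterol transporters described here are the 6 genes Slc10a2, Abcg8, Slco1a4, Slco2b1, Slc51a and Abcc3. They were taken as the rows of the deposited liver table whose platform annotation gives exactly 1 gene symbol from this set. All 6 had 1 row each, among 1750 genes that the table names in this way. The table compares liver RNA of mice fed by vein (parenteral nutrition, PN) with liver RNA of mice infused with saline. Both groups were wild-type C57BL/6J mice of 6 to 10 weeks with a jugular vein catheter, and both received saline from day 2. The PN mice were switched to PN on day 3 and their food was removed, while the saline mice kept theirs, so infusate and feeding differ together and cannot be told apart. Livers were taken on day 11. RNA of 3 mice was pooled per group and each pool was measured on 1 array, so no value below has a replicate and no difference was tested. The labels used here give neither the sex of the mice nor the composition of the infusate.

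Levels are the authors' RMA values on the log2 scale (robust multi-array average, a summary of the probes of a gene after normalization between arrays). A difference is the PN level minus the saline level, so that a positive value means higher in the PN pool, and a fold is 2 raised to that difference. The authors kept only rows that differed by at least 1.5-fold (0.585 on the log2 scale). Presence in the table is therefore not a finding, and a gene without a value is not thereby unchanged. Of the 10 hepatocyte markers listed as a check of the tissue, such as Alb and Ttr, none had a value, so the labelled tissue could not be checked on them.

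Bile acids are made from cholesterol in hepatocytes, secreted across the canalicular (apical) membrane into bile, taken up again in the ileum and returned to the liver in portal blood. Carriers of the basolateral membrane take them up from that blood, and other basolateral carriers return them to it when they accumulate in the cell. Sterols reach bile through a separate canalicular pump. The nuclear receptor FXR, which binds bile acids, and the receptors LXR, CAR and PXR and the factor NRF2 are known regulators of several of these carriers.

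The level was higher in the PN pool for 4 of the 6 transporters and lower for 2. Both apical carriers were higher, Slc10a2, which takes bile acids up into the cell, and Abcg8, which exports sterols into bile. At the basolateral membrane the uptake carriers split, with Slco1a4 higher and Slco2b1 lower, and so did the efflux carriers, with Slc51a higher and Abcc3 lower. The differences of the 6 ran between -0.66 and 0.90, with a median of 0.77, and 0 of 6 reached 2-fold, against 259 of 1750 named genes (14.8%). The median was 0.59 for all named genes and 0.66 for the Slc, Slco and Abc genes. Any set with most genes higher has a median of at least 0.585 in this table, so 0.77 is no effect by itself. The higher direction was also that of 50.2% of named genes in the table, and of 34 of 51 genes (66.7%) whose symbol begins with Slc, Slco or Abc. The 66.7% of the 6 transporters that were higher thus equals the share among carrier genes at large, and the count says nothing particular about bile acid and sterol transport.

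**Figure D1:**
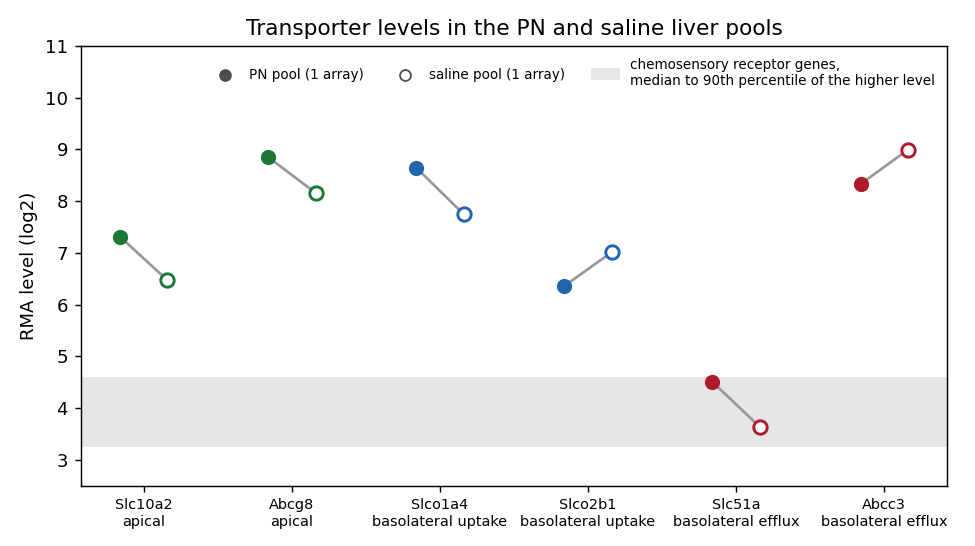
RMA level (log2, y axis) of each transporter in the PN pool (filled) and the saline pool (open), 1 array each with no error bars, coloured by membrane placement. The grey band runs from the median (3.26) to the 90th percentile (4.58) of the higher level of 133 chemosensory receptor genes; the levels of Slc51a lie inside it and those of the other 5 transporters above it.

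Slc10a2 encodes the apical sodium-dependent bile acid transporter, known for the uptake of bile acids in the ileum and, in liver, from bile into cholangiocytes, the cells that line the bile ducts. Its level was 7.31 in the PN pool, against 6.47 in the saline pool. The difference of 0.84 is a 1.79-fold higher level. At least as large a difference in either direction was recorded for 506 of the 1750 named genes (28.9%). The sequence before its transcription start is shown because it holds a motif that few promoters in the same table hold. The 250 bases before the start (chr8:5105288-5105537, minus strand, RefSeq promoter table of build GRCm38.p6) read as follows, with matches to TTAATNATTAA, the core of the motif bound by the liver factor HNF1, in capitals:
Slc10a2: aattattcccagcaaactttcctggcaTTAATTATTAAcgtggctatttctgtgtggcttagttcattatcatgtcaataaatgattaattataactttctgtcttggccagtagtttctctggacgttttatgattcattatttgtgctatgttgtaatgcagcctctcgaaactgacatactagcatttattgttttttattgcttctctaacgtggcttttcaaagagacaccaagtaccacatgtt
The match lies 223 to 213 bases before the start. This motif was chosen after the sequence was seen, and 38 of 32851 promoter windows of this length (0.116%) held it on either strand. A match is a description of the letters, and the arrays hold no measurement of binding.

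Slc10a2 was set beside markers of the cells that could carry it. Of 13 cholangiocyte markers 3 had a value, with 1 higher and 2 lower, against 50.2% of named genes higher and 49.8% lower. Epcam, an epithelial adhesion gene, had 3.61 in the PN pool and 4.47 in the saline pool, and Tspan8 had 5.28 in the PN pool and 5.87 in the saline pool, so both were lower. Prom1, at 4.27 in the PN pool against 3.21 in the saline pool, was higher. Summed on the linear scale, these 3 came to 70.2 in the PN pool and 89.9 in the saline pool, a ratio of 0.781. Both levels of Epcam and the PN level of Prom1 lie between 3.26 and 4.58. These are the median and the 90th percentile of the higher level of the chemosensory receptor genes. This span is called the receptor range here, and many receptor genes lie under it and some above it. The saline level of Prom1 lies under that median. This limits what can be read from Epcam, Prom1 and the sum. The other 10, Krt19, Krt7 and Sox9 among them, had no value. Of 10 intestinal epithelial markers 5 had a value, with 4 higher and 1 lower, against 50.2% of named genes higher and 49.8% lower. Fabp2, Muc2, Cdx2 and Alpi were higher and Fabp6 lower. Both levels of Fabp6 lie in the receptor range (3.74 in the PN pool and 4.46 in the saline pool). So do the saline levels of Cdx2 (4.35) and Muc2 (4.31). The linear sum of the 5 markers was 1.73 times as high in the PN pool. It is carried by the fatty acid binding protein gene Fabp2, which liver also expresses, with 10.8 in the PN pool and 9.95 in the saline pool. Vil1, Sis and Cdh17 had no value. The part of these cell types in the difference of Slc10a2 was not tested. In bulk tissue, fewer cells of a type and less RNA per cell cannot be told apart.

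Abcg8 encodes sterolin-2, which pairs with sterolin-1, the product of Abcg5, to form the canalicular pump that exports cholesterol and plant sterols into bile. Its level was 8.85 in the PN pool, against 8.16 in the saline pool, which is 1.61-fold higher (difference 0.69). At least as large a difference was recorded for 60.9% of named genes, so the difference of Abcg8 lies near the cutoff of the table. Abcg5 had no named value, so the partner subunits cannot be compared. The pair is transcribed in opposite directions from neighbouring starts. The 109 bases between the start of Abcg5 and that of Abcg8, 1 of 2 starts given for Abcg8 (chr17:84683012-84683120, GRCm38.p6, plus strand, the strand of Abcg8), are shown because both genes share them:
Abcg8: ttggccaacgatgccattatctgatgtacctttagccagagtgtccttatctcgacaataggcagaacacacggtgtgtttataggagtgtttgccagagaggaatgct
No AGGTCA, the core hexamer of many nuclear receptor motifs, was found there on either strand. This says only that these letters are not in this stretch.

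Slco1a4 encodes Oatp1a4, a sodium-independent basolateral carrier that takes up bile acids, steroid conjugates and drugs from blood. It had 8.65 in the PN pool and 7.75 in the saline pool. The difference of 0.90, a 1.86-fold higher level, was the highest among the 6. Slco2b1, a carrier of the same organic anion transporting polypeptide family that takes up steroid sulfates, had 6.36 in the PN pool and 7.01 in the saline pool. It was 1.57-fold lower (difference -0.65). The differences of the 2 uptake carriers lay 1.55 apart on the log2 scale. For Slco2b1, 72.1% of named genes differed by at least as much, against 23.5% for Slco1a4. No further Slco gene had a named value, and Slc10a1, the main sodium-dependent uptake carrier of hepatocytes, had none either.

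Slc51a encodes the alpha subunit of the organic solute transporter, a basolateral efflux carrier that works only as a pair with the beta subunit, encoded by Slc51b. Its level was 4.51 in the PN pool, against 3.64 in the saline pool, which is 1.83-fold higher (difference 0.87). These levels are low. Of 133 chemosensory receptor genes in the table, which liver is not known for expressing, 15 had a higher level at least as high as that of Slc51a, and 23 differed by at least as much. These receptor genes had also passed the cutoff, so the 23 give no rate of noise. Of the 1750 named genes, 467 (26.7%) differed by at least as much as Slc51a. With levels under the upper quartile of those receptor genes (3.93) raised to it, the difference of Slc51a was 0.58. Slc51b has no row of its own. A row it shares with Rasl12, a neighbouring gene, had 2.74 in the PN pool and 3.71 in the saline pool, a difference of -0.97. The PN level lies under the receptor median of 3.26, and with levels raised to that median the difference was -0.45. The row of the alpha subunit and the shared row thus pointed in opposite directions at levels in or under the receptor range, and which of its 2 genes the shared row measured is not known.

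The starts of both subunit genes are shown because FXR is known to induce them together. The 250 bases before each start (GRCm38.p6, both on the minus strand, at chr16:32487880-32488129 for Slc51a and chr9:65422774-65423023 for Slc51b) hold 1 AGGTCA hexamer each, in capitals, which appears as TGACCT where it lies on the other strand:
Slc51a: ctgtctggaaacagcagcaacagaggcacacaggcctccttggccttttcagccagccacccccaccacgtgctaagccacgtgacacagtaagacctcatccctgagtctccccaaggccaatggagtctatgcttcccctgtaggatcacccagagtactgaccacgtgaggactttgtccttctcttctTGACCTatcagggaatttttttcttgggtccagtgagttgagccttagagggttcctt
Slc51b: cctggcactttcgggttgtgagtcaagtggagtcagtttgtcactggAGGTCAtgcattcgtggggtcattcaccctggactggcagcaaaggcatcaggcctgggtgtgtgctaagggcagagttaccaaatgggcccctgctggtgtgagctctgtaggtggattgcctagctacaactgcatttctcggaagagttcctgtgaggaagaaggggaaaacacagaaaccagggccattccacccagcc
The hexamer lies 58 to 53 bases before the start of Slc51a and 203 to 198 bases before that of Slc51b. It was present in 14.0% of the 32851 windows. The inverted repeat AGGTCANTGACCT, the form FXR is best known to bind, was found in 2 windows of all, neither of them of these genes. Of the 6 transporters 5 had an entry in the promoter table, and the missing one is Abcc3. The hexamer was in 1 of the 8 windows of these 5, that of Slc51a. None of the 8 held that inverted repeat, the direct repeats AGGTCANAGGTCA and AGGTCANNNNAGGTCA, or TGACNNNGC, the core of the element bound by NRF2, which 10.2% of all windows held. The direct repeats were in 11 and 5 of all windows (0.033% and 0.015%), so their absence from 8 windows says nothing about these genes. The direct repeats contain the hexamer, and both strands were searched for every motif.

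Abcc3 encodes Mrp3, an ATP-driven basolateral pump that returns glucuronide conjugates and bile acids to blood. Its level was 8.33 in the PN pool, against 8.99 in the saline pool. It was 1.59-fold lower (difference -0.66), and 67.9% of named genes differed by at least as much. The differences of Slc51a and Abcc3, the 2 efflux carriers, lay 1.53 apart.

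**Figure D2:**
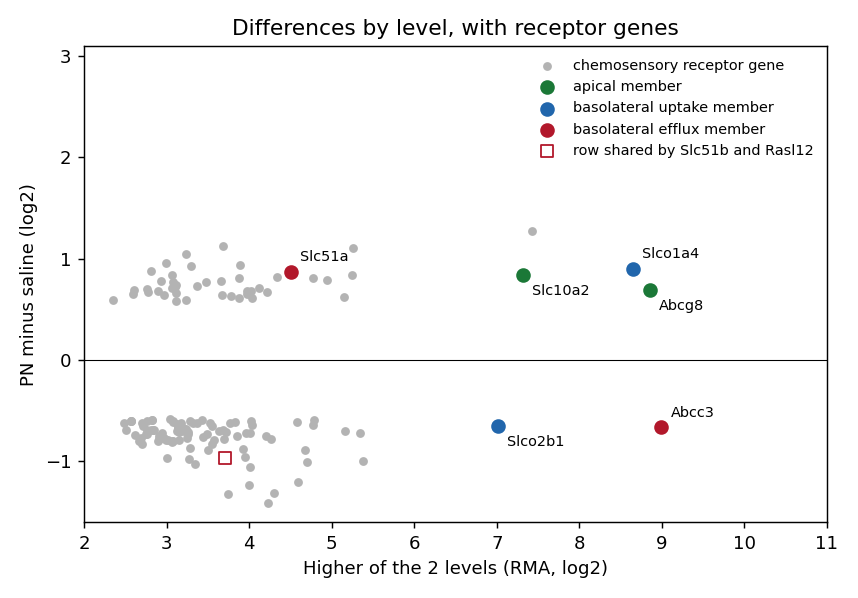
PN minus saline (log2, y axis) against the higher of the 2 levels (RMA, log2, x axis) for the 6 transporters, the row shared by Slc51b and Rasl12, and 133 chemosensory receptor genes in grey. Slc51a and the shared row lie among the receptor genes, while the other 5 transporters have higher levels of 7.01 to 8.99. The receptor gene Olfr1269 (7.42 in the PN pool, 6.15 in the saline pool) lies above Slc10a2 and Slco2b1 in its higher level. The empty band around 0 is the 1.5-fold cutoff.

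Set side by side by membrane, the median difference was 0.77 for the 2 apical carriers, 0.12 for the 2 uptake carriers and 0.10 for the 2 efflux carriers. The apical pair joins an uptake carrier, Slc10a2, and an efflux carrier, Abcg8, so its median describes no single flow. Each basolateral median is the midpoint of 1 higher and 1 lower carrier and describes neither of them. In size the pairs were alike, with a median absolute difference of 0.77 for apical, 0.78 for uptake and 0.77 for efflux carriers. The apical median exceeded that of all 4 basolateral carriers by 0.66. An apical carrier lay above a basolateral one in 4 of 8 pairings, namely in those with Slco2b1 and Abcc3, and below it in those with Slco1a4 and Slc51a. With a 1.7-fold cutoff, Slc10a2, Slco1a4 and Slc51a remained, and the contrast was -0.040, since both lower basolateral carriers lie under that cutoff. It was 1.42 with the row shared by Slc51b counted, 1.42 without Slc51a, and 1.35 with Abcg2, Slc22a7 and Ephx1 added. The size of the contrast, and in the first case its direction, thus depends on which genes are counted, and with 1 array a group it was not tested.

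The wider carrier lists added 1 apical gene and 2 basolateral uptake genes with a value. Of 25 listed carriers of bile acids, sterols, phospholipids and related organic anions 9 had a named value, with 4 higher in the PN pool, 5 lower and a median of -0.65. The 5 of 9 that were lower lie near the 49.8% of named genes that were lower. The 3 that are not among the 6 transporters were lower. Abcg2, an apical efflux pump for sulfated steroids and drugs, had 7.17 in the PN pool and 7.86 in the saline pool. Slc22a7, a basolateral organic anion carrier, had 5.83 in the PN pool and 6.52 in the saline pool. Ephx1, microsomal epoxide hydrolase, which has also been proposed to take part in bile acid uptake, had 8.41 in the PN pool and 9.29 in the saline pool. With Abcg2 counted, 2 of 3 apical carriers were higher, and with Slc22a7 and Ephx1 1 of 4 uptake carriers was. Lower carriers outnumber higher ones, and the median is negative, only with the enzyme Ephx1 counted as a carrier. The other 16, including the bile salt export pump gene Abcb11, Abcc2, Abcb4, Slc10a1, Slco1a1, Slco1b2, Abcc4 and Abca1, had no named value.

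**Figure D3:**
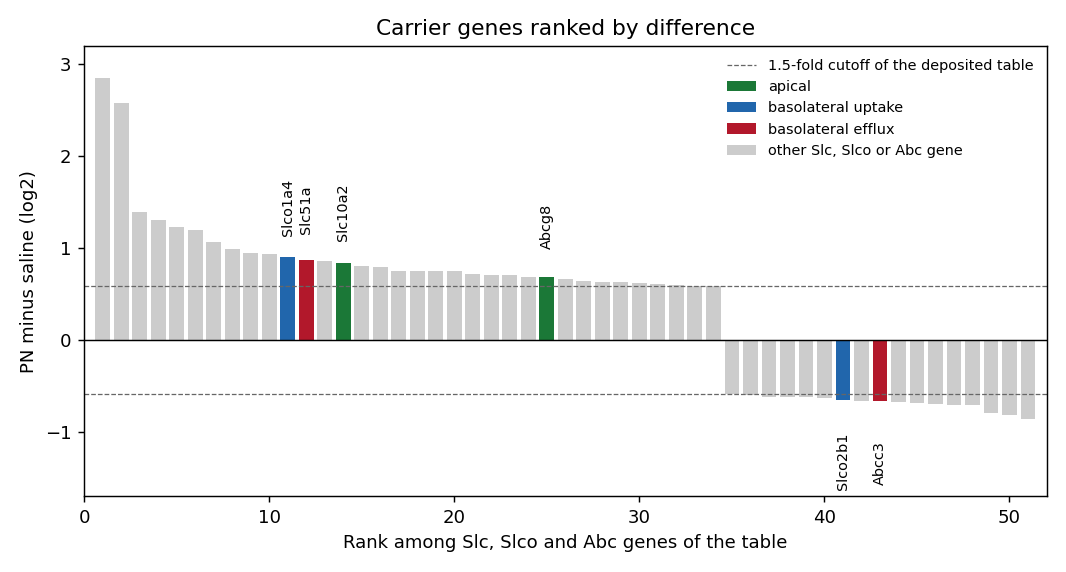
PN minus saline (log2, bars from 0) for the 51 genes of the table whose symbol begins with Slc, Slco or Abc, ranked from the highest. The 6 transporters, coloured by membrane, hold ranks 11, 12, 14, 25, 41 and 43, inside the range of the other carriers, and the dashed lines mark the 1.5-fold cutoff.

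Among these 51 carrier genes the 6 transporters lay away from both ends. Slco1a4 ranked 11, Slc51a 12, Slc10a2 14 and Abcg8 25 from the highest, and Slco2b1 ranked 41 and Abcc3 43. The ends were held by Slc22a27, Abcd2 and Slc25a25 (2.86, 2.58 and 1.39) and by Slc22a4, Slc6a20a and Slc8b1 (-0.86, -0.82 and -0.79). The median absolute difference was 0.77 for the 6 transporters, against 0.71 for the other 45 carriers and 0.73 for all named genes.

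The regulators and target lists of the pathway were thinly covered. Of 18 regulators 2 had a value and were lower, against 49.8% of named genes lower. Nr0b2, which encodes SHP, an FXR-induced repressor, had 7.60 in the PN pool and 8.49 in the saline pool. Gpbar1, a cell surface bile acid receptor, had 5.35 in the PN pool and 6.12 in the saline pool. FXR itself (Nr1h4), Fgfr4 and Klb had none. Of 16 FXR-responsive genes 6 had a value. Slc51a, Slc10a2, Cyp7a1 and Pltp were higher and Nr0b2 and Cyp8b1 lower, against 50.2% of named genes higher and 49.8% lower. The shared row of Slc51b was lower. FXR is known to induce Nr0b2 and Slc51a and to repress Cyp7a1 and Cyp8b1. Pltp and Slc10a2, both higher, are not in these pairs, so no split of directions is read from the pairs. The levels of Slc51a lie in the receptor range, which limits what can be read from the induced pair. The part of FXR in these differences was not tested.

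Of 14 LXR targets 4 had a value and 4 were higher, against 50.2% of named genes. Abcg8 had the lowest difference of these, beside Lpl, lipoprotein lipase (0.82), Pltp, phospholipid transfer protein (0.98), and Cyp7a1 (1.27). The other 10, Abcg5, Abca1, Abcg1 and Srebf1 among them, had no value. Of 21 CAR and PXR targets 12 had a value, with 5 higher and 7 lower, against 50.2% of named genes higher and 49.8% lower. Slco1a4 was among the higher and Abcc3 among the lower, so both directions occurred among the carriers of this list. Its largest differences were 3.23 for Cyp2b9, -2.75 for Cyp2b10, -1.93 for Cyp2a5, 1.58 for Cyp2b13 and -1.33 for Gstm3. Of 25 NRF2 targets 9 had a value, with 1 higher and 8 lower, against 49.8% of named genes lower. Abcc3 was among the 8, with the glutathione transferase gene Gstm3 (-1.33), the aldehyde oxidase gene Aox1 (-0.94), Ephx1 (-0.88) and Gsta4 (-0.75). Hmox1, heme oxygenase, was higher (0.94). The lists overlap and are not separate sets of values. Pltp and Cyp7a1 are also FXR-responsive genes, and Abcc3, Gstm1 and Gstm3 are also CAR and PXR targets. Rows shared by Gsta1, Gsta2 and predicted genes had differences of -1.16 and -1.77.

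**Figure D4:**
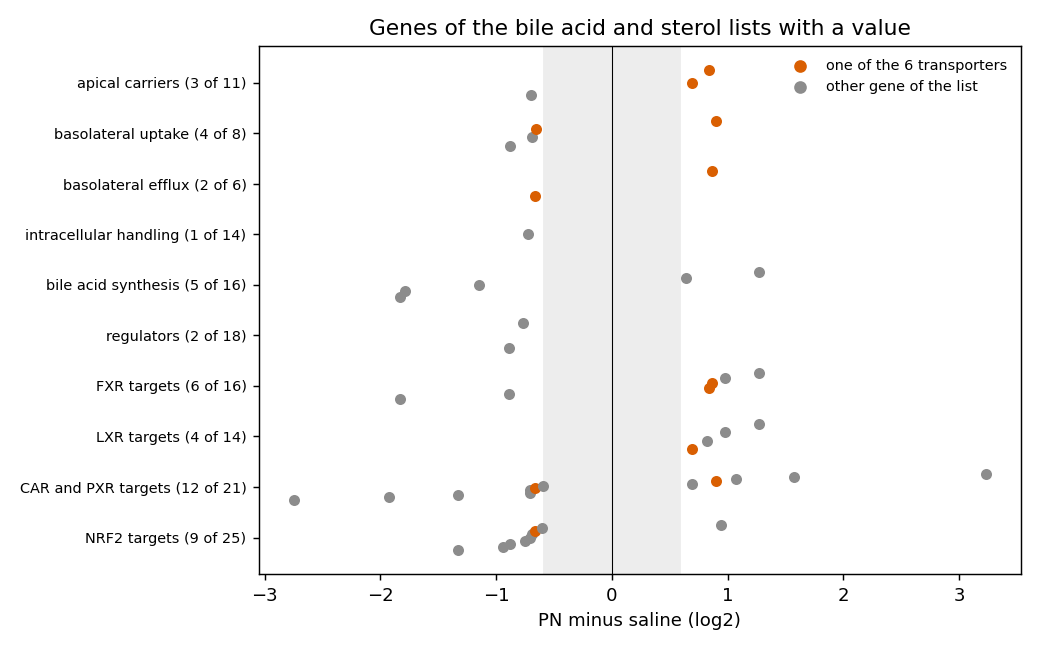
PN minus saline (log2, x axis) for each gene with a named value in 10 lists of the pathway; the numbers beside each list give the genes with a value of those listed, and the shaded band is the range removed by the 1.5-fold cutoff. The 6 transporters (orange) lie on both sides, the 4 LXR targets lie to the right, and 8 of the 9 NRF2 targets lie to the left. The lists overlap, so some genes are drawn in several of them.

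Of 16 bile acid synthesis genes 5 had a value, with 2 higher and 3 lower, against 50.2% of named genes higher and 49.8% lower. Cyp7a1, the rate-limiting enzyme, had 10.0 in the PN pool and 8.77 in the saline pool, Cyp39a1 differed by 0.64, and Cyp8b1, Akr1c6 and Cyp7b1 were lower, by -1.83, -1.78 and -1.15. Of 14 genes of intracellular sterol and bile acid handling only Fabp6, the ileal bile acid binding protein gene, had a value, with 3.74 in the PN pool and 4.46 in the saline pool. Both levels of Fabp6 lie in the receptor range.

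Macrophage markers with a value were higher in the PN pool. Of 15 listed 9 had a value and 9 were higher, against 50.2% of named genes, with a linear sum 1.72 times as high in the PN pool, while 6, Adgre1 and Csf1r among them, had none, as had all 8 endothelial markers. Their part in the transporter differences was not tested.

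The genes whose 2 levels lay closest to those of each transporter were found among 1356 named protein-coding genes by Euclidean distance over the PN and saline levels. With only 2 values this describes position on these arrays and nothing more. The nearest were Frmd4b and Actg1 for Slc10a2 (distances 0.037 and 0.0434), Ell2 and Lyz2 for Abcg8 (0.103 and 0.118), and Fasn and Inhbc for Slco1a4 (0.0524 and 0.212). For Slco2b1 they were Slc45a3 and Bap1 (0.0453 and 0.0545), for Slc51a Pde5a and Car13 (0.037 and 0.0399), and for Abcc3 Ttc39c and Nr1d1 (0.139 and 0.187).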

How the data were processed

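Liver RNA of 2 groups was measured on 2 arrays, 1 per group, each with RNA pooled from 3 mice per the series' design text. The deposited log2 values were made by the authors with RMA in Affymetrix Expression Console 1.4.0.38, per the submitters' processing notes, and cut at 1.5-fold per the design text; the smallest absolute difference in the table was 0.585. Neither the genome build nor the set of arrays in the normalization is given in the sources used here. The number of arrays limits the precision.

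Of 5082 rows, 1779 carried 1 gene symbol, 161 several and 3142 none. Symbols were updated through Entrez identifiers in the RefSeq gene table (1766 of these rows matched), and rows of a gene were averaged (Python 3.11.15, pandas 2.3.3). Only the averaging of rows and the subtraction of levels were checked, on saline levels with known differences added and no noise. The list, motif and figure steps had no such check. No p-value was computed. The members, gene lists and alternatives were chosen with earlier results of these data known. Named are the 6 transporters, up to 5 genes a list by absolute difference, list genes on shared rows, the 2 nearest genes to each transporter, and the 3 highest and 3 lowest carriers. Other list genes, including those named as having no value, were picked as examples after their values were seen. Alternatives covered scaling, floors on low levels, shared rows and a stricter cutoff.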

Additional observations from a re-analysis of the deposited data

How the results depend on the processing

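The count of higher transporters was 4 in the 6 and stayed at 4 under both scalings and both floors; it was 3 of 3 with a 1.7-fold cutoff. Of 24 single-gene values under these scalings and floors, 24 kept their direction, and the largest shift was 0.29, for Slc51a with levels raised to the receptor upper quartile. A common floor cannot reverse a direction. Both scalings used only the deposited rows, all past the 1.5-fold cutoff, so they are not scalings of the whole arrays. The scalings shifted no transporter by more than 0.089, while the table holds only differences of at least 0.585. The kept directions and the unchanged count of 4 are therefore no sign of robustness. The median difference, 0.77 as reported, was 0.79 with each array centred on its median, 0.72 after quantile normalization, 0.63 with the upper-quartile floor, 0.69 with the shared row of Slc51b counted and 0.87 with the 1.7-fold cutoff. The apical minus basolateral contrast, 0.66 as reported, was 0.62 after quantile normalization, 0.80 with the upper-quartile floor, 1.42 with the shared row counted and, reversed, -0.040 with the 1.7-fold cutoff, which leaves 3 genes.

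Further alternatives were chosen after seeing the data. Without Slc51a the median was 0.69 and the contrast 1.42. With Abcg2 added they were 0.69 and 0.58. With Abcg2, Slc22a7 and Ephx1 added the median reversed to -0.65, since 5 of the 9 were then lower, and the contrast was 1.35. This reversal depends on counting Ephx1, an enzyme only proposed to take part in uptake, as a carrier. No paired analysis was possible because each group has 1 array. Levels in the receptor range limit what can be read from Slc51a and Slc51b.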
